A study of Mus musculus with 32 samples.

Results

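The microRNA family miR-26 was described in mesenteric arteries, small resistance-type vessels of the gut, of mice that overexpress endothelin-1 in the endothelium and of their controls. Its members were taken by name: all rows of the deposited table whose base name is miR-26a or miR-26b, either arm, which gave 5 of 870 rows. These were miR-26a-5p, miR-26b-5p, miR-26b-3p, miR-26a-1-3p and miR-26a-2-3p. A filter of a normalized signal of at least 1 in at least 8 libraries was passed by 3 of the 5, namely miR-26a-5p, miR-26b-5p and miR-26b-3p, each of which reached 1 in all 30 libraries. miR-26a-2-3p reached 1 in 3 libraries and miR-26a-1-3p in 0, so both were described mainly from reads. Fitted without the filter, neither was called in any comparison.

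The ieET-1 mice overexpress endothelin-1, a vasoconstrictor peptide, and the ieCre control mice carry the inducible Cre recombinase without it. In both, the Tie2 promoter, which is active in endothelium and also in some blood cells, drives a Cre that tamoxifen switches on. All mice were males aged 10 to 12 weeks that received tamoxifen at 1 mg/kg/day for 5 days, controls included, and each library stands for 1 animal number in the labels. The short-term arteries were collected 16 days afterwards and the long-term ones after 3 months, from 8 ieET-1 and 7 ieCre mice at short term and from 8 ieET-1 and 7 ieCre mice at long term, so that long-term mice were also older.

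MicroRNAs are cut as a duplex from a hairpin. One strand, the guide, is usually retained and pairs with target messenger RNAs through its seed, bases 2 to 8, while the other strand is mostly lost. miR-26 comes from hairpins that lie inside genes of small C-terminal domain phosphatases, Ctdspl, Ctdsp2 and Ctdsp1. In vascular smooth muscle miR-26a is known as a regulator of the switch between the contractile and the proliferative state, with SMAD signalling proteins and the histone methyltransferase Ezh2 among its reported targets.

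Both guide strands carry the same seed, which is why they are treated as 1 family. Their mature sequences follow, from RefSeq on GRCm38.p6, written 5′ to 3′ with the seed in capitals.
miR-26a-5p: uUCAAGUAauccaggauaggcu
miR-26b-5p: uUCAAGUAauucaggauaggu
miR-26a-1-3p: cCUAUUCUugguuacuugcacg
miR-26a-2-3p: cCUGUUCUugauuacuuguuuc
miR-26b-3p: cCUGUUCUccauuacuuggcuc
Counted from the 5′ end, the 5p strands differ by C11U and C21U over the 21 bases compared (miR-26a base first), and miR-26a-5p is 1 base longer (22 against 21). Both differences lie outside the seed. Among 1679 mature names in the RefSeq table, the seed UCAAGUA occurred in 2, which are these 5p strands. The passenger strands do not share 1 seed: miR-26a-2-3p and miR-26b-3p have CUGUUCU and miR-26a-1-3p has CUAUUCU, a difference of G4A from miR-26a-2-3p.

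The hairpins show where each arm sits, with the mature arms in capitals.
Mir26a-1: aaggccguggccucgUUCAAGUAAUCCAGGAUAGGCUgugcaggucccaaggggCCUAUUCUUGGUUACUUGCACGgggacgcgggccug
Mir26a-2: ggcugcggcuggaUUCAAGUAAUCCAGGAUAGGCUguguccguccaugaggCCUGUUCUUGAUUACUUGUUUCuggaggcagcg
Mir26b: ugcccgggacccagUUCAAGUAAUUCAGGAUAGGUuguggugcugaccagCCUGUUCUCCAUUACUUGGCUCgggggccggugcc
On GRCm38 all 3 are on the plus strand: Mir26a-1 at chr9:119031796-119031885, Mir26a-2 at chr10:126995530-126995613 and Mir26b at chr1:74394310-74394394. By GENCODE M21, Mir26a-1 lies within introns of Ctdspl and Mir26b within introns of Ctdsp1. Mir26a-2 lies in Ctdsp2, where it overlaps an exon of annotated coding and retained-intron transcripts. The host genes are on the same strand as the hairpins. Because Mir26a-1 and Mir26a-2 encode an identical 5p strand, the reads of miR-26a-5p cannot be assigned to either locus, and only the 3p strands distinguish them. Positions were matched by name, since no source used here gives the genome build of the authors' table.

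The libraries held 1820166 to 35531345 miRNA reads. miR-143-3p, the smooth muscle miRNA, took 45.5% of the reads on average. The endothelial miR-126 arms had mean normalized signals of 12880.5 (miR-126-5p) and 681 (miR-126-3p), so smooth muscle and endothelial markers were both present. Rows listed as red cell markers (miR-451a, miR-144 and miR-486) had group medians of 4.53% to 8.76% of reads. They reached 23.4% in an ieET-1 short-term library. These sums count 2 rows of miR-486-5p with nearly equal mean levels (14.9498 and 14.9515, log2). Whether both rows hold the same reads was not tested, and if so the red cell shares are too high. Epithelial marker rows reached 0.947% and pancreatic ones 0.222% in single long-term libraries. The libraries labelled ieET-1 short term 258 and ieCre short term 8 were near-identical, at Pearson r = 0.99994 over all miRNAs in log2 values, against 0.9963 for the next of 435 pairs, and may be 1 library under opposite labels. Their miR-26a-5p signals were 18755 (ieET-1) and 18835 (ieCre). Animal numbers fall into ranges, below 1000 or 8000 and above at short term, and the 8000s or 9000s at long term. What the ranges stand for is not stated, and values within them are given beside the results. Differences of a miRNA between bulk arteries cannot be divided into fewer cells of a type and less RNA per cell.

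miR-26a-5p was among the most abundant miRNAs of the artery and miR-26b-5p was more than 10-fold lower. The mean normalized signal of miR-26a-5p over 30 libraries was 20748 ± 5873 (SD), the 7th of 870 rows, between miR-30a-5p (36559 ± 13318) and miR-27b-3p (14040.1 ± 2906). It made up 2.28% ± 1.18 of all miRNA reads, with a range of 0.526% to 4.96%. miR-26b-5p had a mean signal of 1122 ± 235, the 35th row, between miR-30e-5p (1152 ± 355) and miR-23b-3p (1088 ± 269), and its distance to both neighbours was less than its spread. Reads behind miR-26a-5p numbered 38445 to 1591652 per library, so that counting error is small beside the spread between mice.

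The levels in the 4 groups overlapped for miR-26a-5p. At short term it ranged from 14090 to 29431 in ieET-1 mice (median 19206, mean 19827 ± 4616, SD, n = 8) and from 12276 to 29872 in ieCre mice (median 18835, mean 19061 ± 5747, n = 7). At long term it ranged from 13510 to 30697 in ieET-1 mice (median 19457, mean 20821 ± 6875, n = 8) and from 14616 to 34308 in ieCre mice (median 23947, mean 23406 ± 6401, n = 7). By mean, the order was ieCre long term, ieET-1 long term, ieET-1 short term and ieCre short term, and every neighbouring pair in this order differed by less than 1 SD of either group.

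miR-26b-5p, the guide strand from the single Mir26b locus, had a smaller SD relative to its mean than miR-26a-5p, except in ieCre long term (31.1% against 27.3%). At short term its normalized signal ranged from 991 to 1379 in ieET-1 mice (median 1062, mean 1114 ± 134, SD, n = 8) and from 776 to 1373 in ieCre mice (median 1068, mean 1083 ± 182, n = 7). At long term the range was 814 to 1533 in ieET-1 mice (median 1143, mean 1148 ± 269, n = 8) and 746 to 1678 in ieCre mice (median 1134, mean 1141 ± 355, n = 7). The means of the 4 groups lay closer together than the mice of any 1 group, and the groups overlapped.

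The passenger strand miR-26b-3p was near the floor of the tested range. At short term its signal ranged from 1.34 to 5.64 in ieET-1 mice (median 3.08, mean 3.34 ± 1.83, SD, n = 8) and from 1.76 to 5.05 in ieCre mice (median 2.84, mean 3.09 ± 1.33, n = 7). At long term it ranged from 1.05 to 5.82 in ieET-1 mice (median 2.20, mean 2.99 ± 1.81, n = 8) and from 1.20 to 4.12 in ieCre mice (median 1.98, mean 2.37 ± 0.967, n = 7). The 4 groups overlapped here as well.

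**Figure D1:**
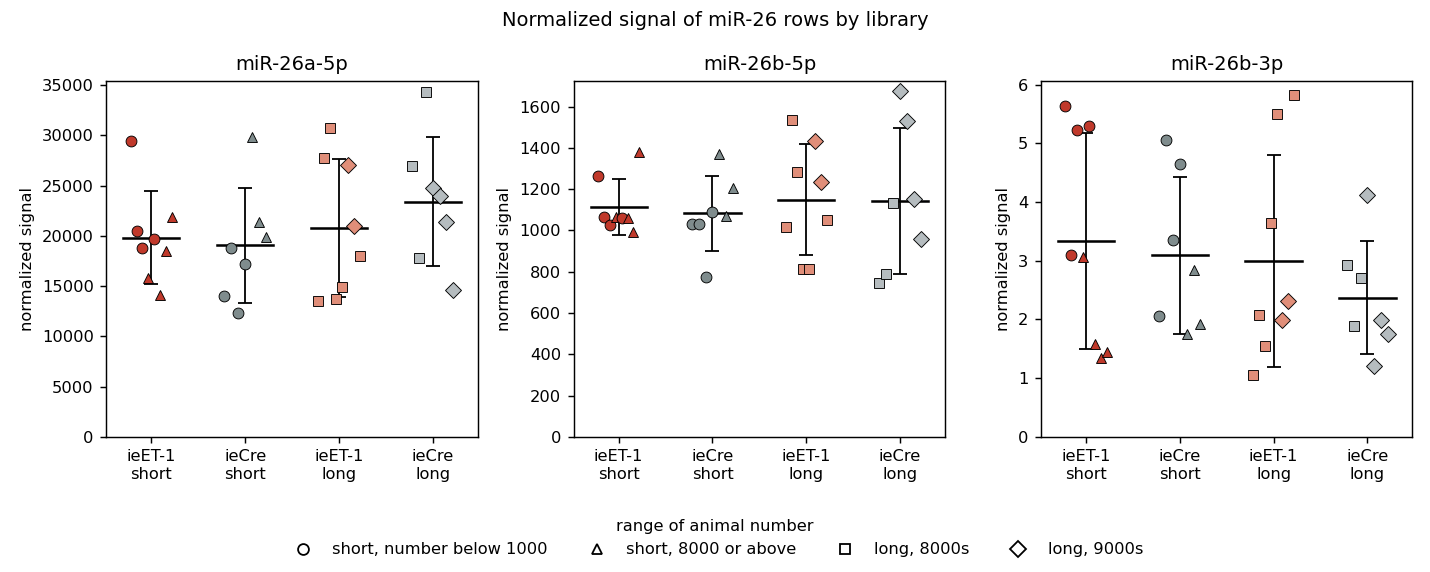
Normalized signal (linear axes from 0) of miR-26a-5p, miR-26b-5p and miR-26b-3p in each library, by group. Points are libraries, with the marker showing the range of animal number, bars are the mean and whiskers 1 SD (n = 8, 7, 8 and 7); the groups overlap in all 3 panels.

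Within a group, the 5p strands varied less between mice than most miRNAs on the authors' scaling. The SD of log2(value + 1) within groups was 0.41 for miR-26a-5p and 0.32 for miR-26b-5p, against a median of 0.52 over the 354 miRNAs tested. In order from the smallest SD, miR-26b-5p was the 15th and miR-26a-5p the 69th of 354. Low miRNAs carry more counting error, so the comparison was repeated among the 35 miRNAs with a mean log2 level of at least 10, where miR-26b-5p was the 3rd and miR-26a-5p the 7th. miR-26b-3p, at 3 to 305 reads per library, had an SD of 0.55 and was the 211th.

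**Figure D2:**
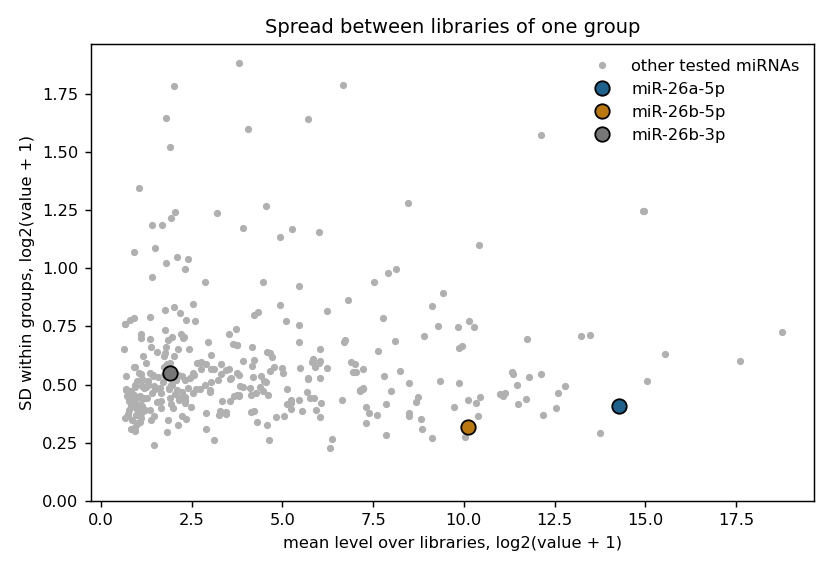
SD within groups against mean level, both on the log2(value + 1) scale, for the 354 miRNAs tested. Each grey point is a miRNA; miR-26a-5p (0.41) and miR-26b-5p (0.32) lie in the lower part of the cloud and miR-26b-3p (0.55) in its middle.

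The first comparison asked whether endothelin-1 overexpression changed miR-26 16 days after tamoxifen. None of the 3 miR-26 rows tested was called. miR-26a-5p was 1.06-fold in ieET-1 mice relative to ieCre mice (95% interval 0.768 to 1.45), miR-26b-5p 1.04-fold (0.801 to 1.34) and miR-26b-3p 1.02-fold (0.685 to 1.52), on the log2(value + 1) scale. All 3 intervals exclude a 2-fold change in either direction, and those of miR-26a-5p and miR-26b-5p exclude 1.5-fold. The 1.5-fold bound did not hold under every setting. For miR-26a-5p the limma interval reached 0.60 (log2) without the near-identical pair and 0.65 with TMM scaling, both beyond 1.5-fold. Scaled to all miRNA reads, the intervals of miR-26a-5p and miR-26b-5p reached -0.88 and -0.89. limma with Benjamini-Hochberg adjustment gave an adjusted p of 0.99 for each, with 6, 2 and 5 of 8 ieET-1 mice on the side of the change. For comparison, the share of all 354 miRNAs that limma called was 0%, and 9 had an unadjusted p below 0.05. Of the 3 members, 0 had an unadjusted p below 0.05 in limma, edgeR or DESeq2, and none was called by edgeR or DESeq2.

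Within ranges of animal number the miR-26a-5p means differed in opposite directions at short term. Among mice numbered below 1000, its signal was 18755 to 29431 in 4 ieET-1 mice and 12276 to 18835 in 4 ieCre mice (log2 difference 0.50, exact permutation p = 0.0571, two-sided, where 0.0286 is the smallest possible). The groups overlapped there only through the near-identical pair. Among mice numbered 8000 or above it was 14090 to 21871 in 4 ieET-1 mice and 19848 to 29872 in 3 ieCre mice (log2 difference -0.43, exact permutation p = 0.143). After adjustment over the 16 within-range comparisons the p-values were 0.305 and 0.457. Whether the difference depends on the range was not tested. The log2 differences of miR-26b-5p were 0.17 below 1000 and -0.12 at 8000 or above, and those of miR-26b-3p were 0.31 and -0.17 (exact permutation, adjusted p 0.503 to 0.61).

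The same question at 3 months gave no call among the 3 rows either. miR-26a-5p was 0.876-fold in ieET-1 mice relative to ieCre mice (95% interval 0.637 to 1.20), with 5 of 8 ieET-1 mice below the ieCre mean. miR-26b-5p was 1.02-fold (0.790 to 1.32) and miR-26b-3p 1.13-fold (0.757 to 1.68). The limma adjusted p-values were 0.948, 0.973 and 0.973. These folds are of value + 1, which understates changes of the low miR-26b-3p. On read counts its log2 change was 0.32 in edgeR and 0.42 ± 0.40 (SE) in DESeq2 (adjusted p = 0.898 and 0.919). With array weights, which give deviating libraries less weight, the log2 change of miR-26a-5p was -0.37 (limma adjusted p = 0.785) in place of -0.19. Scaled to all miRNA reads, the log2 changes of miR-26b-5p and miR-26b-3p were 0.45 and 0.42 (limma adjusted p = 0.631 for both), with intervals that reach 1.20 and 1.13, beyond 2-fold. With the range of animal number in the model miR-26b-5p was at 0.18 (limma adjusted p = 0.635). The background was again 0% of 354 miRNAs in limma, of which 20 had an unadjusted p below 0.05. Among the 3 members 0 reached that level in limma, edgeR or DESeq2. Among the mice in the 8000s, miR-26a-5p was 13510 to 30697 in 6 ieET-1 mice and 17831 to 34308 in 3 ieCre mice, a log2 difference of -0.45. The difference was 0.20 among those in the 9000s, with 2 ieET-1 and 4 ieCre mice (exact permutation p = 0.238 and 0.6, adjusted 0.503 and 0.738). miR-26b-5p differed by 0.28 in the 8000s and 0.036 in the 9000s, and miR-26b-3p by 0.15 and 0.02 (exact permutation, adjusted p 0.503 to 0.933).

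The interaction of genotype and time, tested directly, also gave 0 calls among the 3 rows, against a background of 0% of 354 miRNAs in limma. An unadjusted p below 0.05 was reached by 24 of the 354 and by 0 of the members in limma, edgeR or DESeq2. The long-term effect minus the short-term effect was -0.27 ± 0.32 for miR-26a-5p (log2, SE), -0.02 ± 0.26 for miR-26b-5p and 0.14 ± 0.40 for miR-26b-3p. The limma adjusted p-values were 0.91, 0.98 and 0.927. For miR-26a-5p the interval of 0.528 to 1.30 in fold reaches well below 1, so this design bounds the difference in effect less tightly than either effect. With array weights it was -0.49 (95% interval -1.09 to 0.12, limma adjusted p = 0.593). For the low miR-26b-3p the interval depended on the 1 added to each signal. With 0.5 added instead, its limma interval was -0.77 to 1.11 (log2), which reaches beyond 2-fold. On read counts DESeq2 gave 0.28 ± 0.54 (SE) for it.

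**Figure D3:**
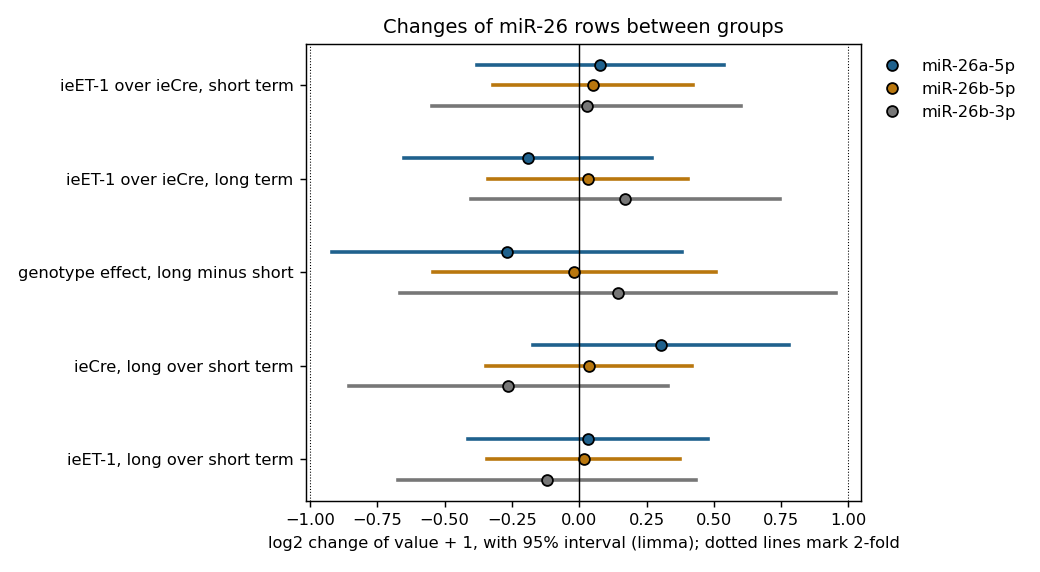
Log2 change of value + 1 with its 95% interval from limma, for 3 miR-26 rows in 5 comparisons. Dotted lines mark 2-fold in either direction. All 15 intervals include 0 and lie inside the dotted lines on this scale. With 0.5 added in place of 1, the interaction interval of miR-26b-3p was -0.77 to 1.11.

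Between the times, no miR-26 row was called in control mice or in endothelin-1 mice. In ieCre mice miR-26a-5p was 1.23-fold at long term relative to short term (95% interval 0.887 to 1.71, 5 of 7 long-term mice above the short-term mean). miR-26b-5p was 1.02-fold (0.786 to 1.34, 4 of 7) and miR-26b-3p 0.833-fold (0.552 to 1.26, 5 of 7 below). The limma adjusted p-values were 0.408, 0.896 and 0.558. Here limma called 28 of 354 miRNAs, or 7.91%, so a count of 0 in 3 rows is near that background. edgeR called 8.47%, DESeq2 12.4% and limma after TMM scaling 9.04% of them, and 0 of the 3 rows. Among ieCre mice numbered 8000 or above, where limma called 9.88% of 334 miRNAs and 0 of the 3 rows, the changes were -0.042 for miR-26a-5p, -0.14 for miR-26b-5p and 0.054 for miR-26b-3p (log2). In ieET-1 mice the folds at long term were 1.02 for miR-26a-5p (0.752 to 1.39), 1.01 for miR-26b-5p (0.789 to 1.30) and 0.92 for miR-26b-3p (0.627 to 1.35). Of 8 long-term mice 4, 4 and 5 lay on the side of the change, and the limma adjusted p-values were 0.954, 0.96 and 0.822, with 21 of 354 miRNAs called (5.93%). The background there was 10.7% in edgeR, 13.3% in DESeq2, 4.52% after TMM scaling and 5.08% after scaling to all miRNA reads, with 0 of the 3 rows in each. Among ieET-1 mice numbered 8000 or above it was 0% of 334 miRNAs, 30 of which had an unadjusted p under 0.05, and the miR-26b-3p difference there was 0.40 (log2) with 0 of the 3 rows called. Again 0 of the 3 members had an unadjusted p below 0.05 in limma, edgeR or DESeq2 in either genotype. The time comparisons share no libraries with each other, but each shares its libraries with the genotype comparisons.

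The comparison of times depended on how libraries were scaled. As a share of all miRNA reads, miR-26b-5p ranged from 0.0232% to 0.157% in ieCre long term (median 0.0743%) and from 0.0871% to 0.228% in ieCre short term (median 0.153%). The difference in log2 share, long minus short term, was -1.05, with 6 of 7 mice below the short-term mean (exact permutation p = 0.0204, two-sided, adjusted p = 0.408 over 20 comparisons of ratios and shares). miR-26a-5p ranged from 0.526% to 2.46% of reads at long term and from 1.38% to 4.96% at short term, a log2 difference of -0.78 with 7 of 7 mice below the short-term mean (exact permutation p = 0.0484, adjusted 0.484). When the libraries were scaled to all miRNA reads, limma called miR-26b-5p (-1.05, adjusted p = 0.0212) and miR-26b-3p (-1.001, adjusted p = 0.0202) lower, and not miR-26a-5p (-0.78, adjusted p = 0.0781). Under that scaling 213 of all 354 miRNAs, or 60.2%, were called lower and the median change of all miRNAs was -0.93, so the miR-26 rows moved by about as much as the median miRNA. Smooth muscle marker rows, dominated by miR-143-3p, summed to 33.8% to 66.5% of reads in ieCre long term and 28.2% to 46.1% in ieCre short term, and their part in the lower shares was not tested.

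**Figure D4:**
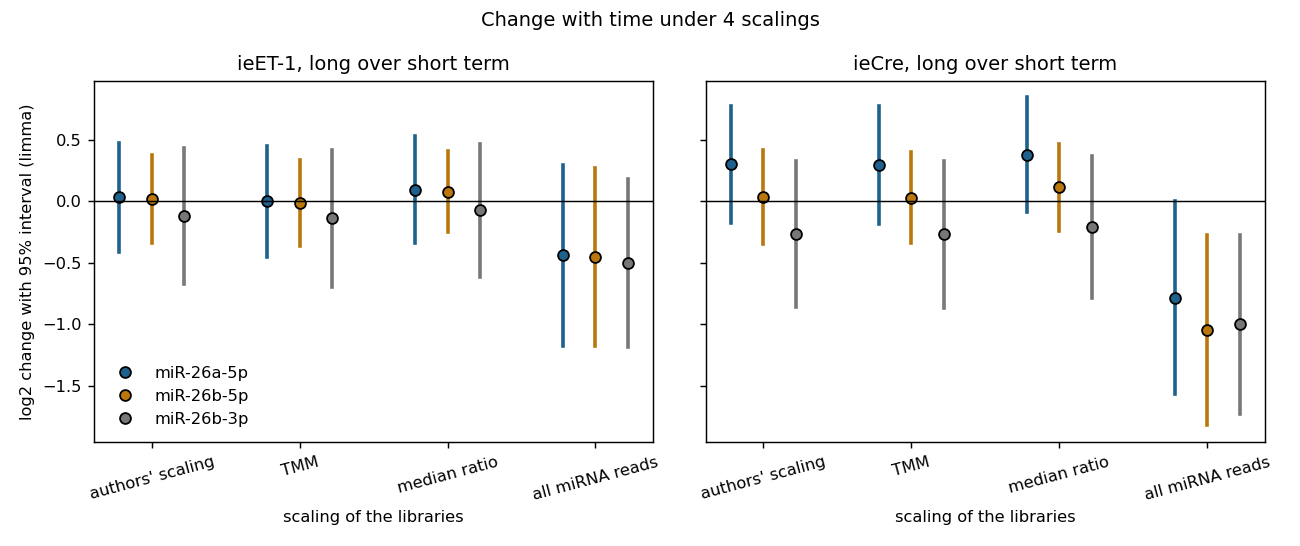
Log2 change from short to long term in ieET-1 and ieCre mice for 3 miR-26 rows, with 95% intervals from limma, under 4 scalings of the libraries. The values under the authors' scaling, TMM and the median ratio lie between -0.27 and 0.38, and those under all miRNA reads between -1.05 and -0.44.

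Ratios of signals within a library do not depend on scaling. The tested log2 ratios had 1 added to each signal, so those with a scarce 3p strand do depend on scaling. At short term the ratio of miR-26a-5p to miR-26b-5p averaged 17.8 ± 3.10 (SD) over 8 ieET-1 mice and 17.4 ± 2.81 over 7 ieCre mice. At long term it averaged 17.9 ± 2.95 over 8 ieET-1 mice and 21.9 ± 8.35 over 7 ieCre mice. miR-26a-5p thus supplied 93.0% to 97.3% of the reads with the shared seed in each library. On the log2 scale the ratio differed between ieET-1 and ieCre by 0.03 at short term (exact permutation p = 0.822) and by -0.22 at long term (p = 0.295, exact permutation). Between the times it differed by 0.27 in ieCre (exact permutation p = 0.245) and 0.02 in ieET-1 mice (p = 0.897, exact permutation). No adjusted p over the 20 comparisons was below 0.408.

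The wide spread of the ratio in ieCre long term came from 3 libraries, all with animal numbers in the 8000s. The libraries 8088, 8089 and 8149 had ratios of 36.1, 30.3 and 22.6, whereas the other ieCre long-term libraries, in the 9000s, had 14.8 to 18.6. Among the mice in the 8000s, 6 ieET-1 mice had 13.3 to 23.9, so these groups overlapped through 1 ieET-1 library (exact permutation p = 0.0238, adjusted 0.229). In the 9000s the ratio was 16.9 and 18.9 in 2 ieET-1 mice, inside or just above the ieCre range. At short term below 1000 the ratio was 18.2 to 23.3 in ieET-1 and 13.6 to 18.2 in ieCre mice (exact permutation p = 0.0286, the smallest possible, adjusted 0.229). The groups there met at the near-identical pair, at 18.24 (ieET-1) and 18.22 (ieCre), so their separation rests on 2 libraries that may be 1. At 8000 or above the ratio was 13.3 to 18.7 in ieET-1 and 16.4 to 21.8 in ieCre mice. Neither direction held in both ranges of a time.

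The passenger strands were scarce, and those of miR-26a far more so than that of miR-26b. Over all libraries 438 reads mapped to the 3p strands of miR-26a beside 13589516 of miR-26a-5p, or 0.00322%, and 2075 to miR-26b-3p beside 727550 of miR-26b-5p, or 0.284%. This was set beside the miRNAs with a single row for each arm and at least 10000 reads over both arms. With miR-26a, its 3p rows summed, they were 101. Other miRNAs with copy-numbered 3p rows, such as let-7a and miR-125b, were left out. Among these 101 the median share of the minor arm was 0.559%. miR-26a had the 5th lowest share, near miR-143 (0.003%), and miR-26b the 41st.

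Of the 3p reads of miR-26a, 323 belonged to miR-26a-2-3p and 115 to miR-26a-1-3p, so 73.7% carried the sequence of the copy in Ctdsp2 (95% exact binomial interval 69.4% to 77.8%, which covers counting error only). miR-26a-2-3p had more reads than miR-26a-1-3p in 24 of 30 libraries, equal reads in 4 and fewer in 2. The pooled share was 70.3% in ieET-1 short term (63.1% to 76.9%) and 74.1% in ieCre short term (65.0% to 81.9%). It was 76.4% in ieET-1 long term (67.2% to 84.1%) and 81.6% in ieCre long term (65.7% to 92.3%), and these intervals overlap. In ieCre short term, library 10 alone supplied 36 of 83 miR-26a-2-3p reads and 42 of 112 reads of both 3p strands. The 3p strands of both copies together had 0 to 51 reads per library. The library labelled ieCre short term 9957 had 0 beside 41348 of miR-26a-5p, where 3 reads would be a share of 0.00726% and the 95% exact binomial interval reaches 0.00892%. The library labelled ieET-1 long term 8136 also had 0, where 3 reads would be 0.00301% and the interval reaches 0.0037%. At these depths the loci cannot be compared between single mice.

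miR-26b-3p made up 0.104% to 0.506% of miR-26b reads in ieET-1 short term (median 0.289%) and 0.128% to 0.486% in ieCre short term (median 0.265%). At long term the range was 0.103% to 0.672% in ieET-1 mice (median 0.162%) and 0.0786% to 0.391% in ieCre mice (median 0.238%). With 1 added to each signal, the log2 ratio of miR-26b-5p to miR-26b-3p differed by 0.02 between ieET-1 and ieCre at short term. At long term it differed by -0.14 (exact permutation p = 0.945 and 0.721). By range of animal number, the share at short term was 0.199% to 0.506% in 8 mice numbered below 1000 and 0.104% to 0.288% in 7 mice from 8000 upwards, each range holding mice of either genotype. In ieET-1 short term the 4 mice below 1000 had 0.291% to 0.506% and the other 4 had 0.104% to 0.288%. The nearest libraries of the 2 ranges, 255 and 8987, differed by less than counting error. Their 95% exact binomial intervals were 0.241% to 0.347% and 0.208% to 0.387%. How many other miRNAs differ between the ranges in this way was not counted. What sets the ranges apart was not tested.

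**Figure D5:**
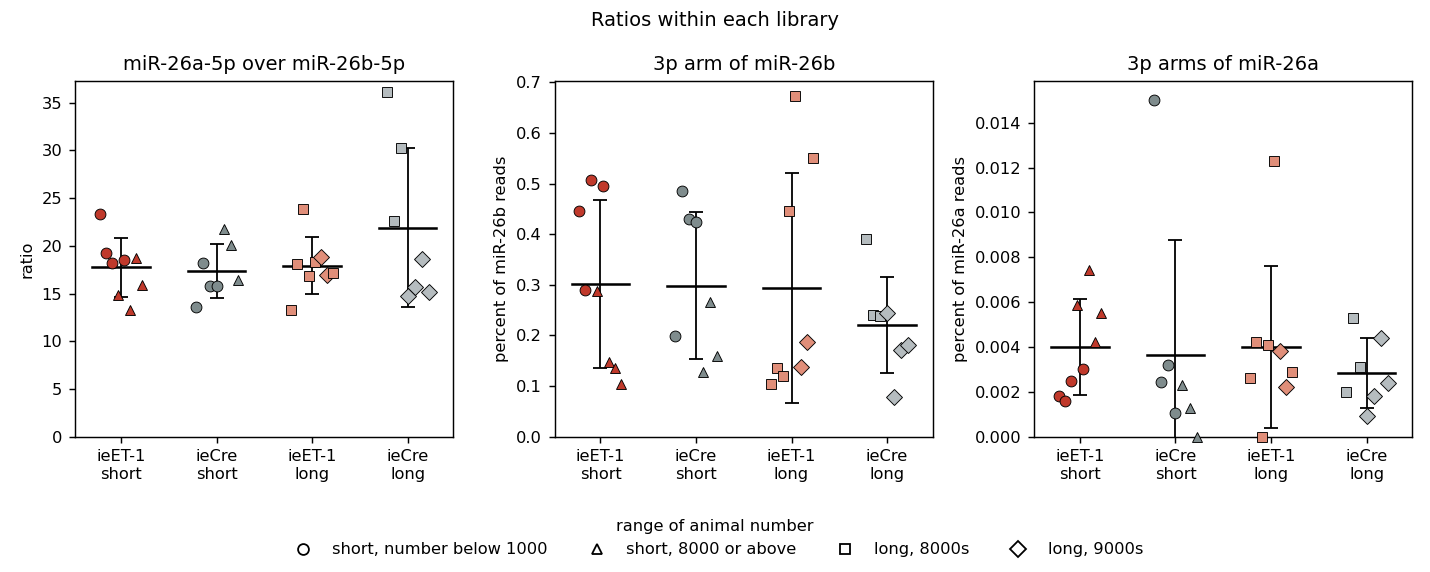
Ratio of miR-26a-5p to miR-26b-5p and the percent of miR-26b and miR-26a reads on the 3p arm, per library, by group (linear axes from 0). Points are libraries with the marker showing the range of animal number, bars the mean and whiskers 1 SD; the 3 highest ratios of ieCre long term, 22.6 to 36.1, are mice in the 8000s.

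On the authors' scaling, the miRNAs whose levels tracked each guide strand most closely were not the same. Over 30 libraries and 351 other tested miRNAs, miR-26a-5p had its highest Pearson correlations on the log2(value + 1) scale with the row listed as miR-n6 (r = 0.83), miR-125a-5p (0.82), miR-145a-3p (0.75), miR-125b-5p (0.73) and miR-221-5p (0.70). miR-26b-5p had its highest with miR-10a-3p (r = 0.80), miR-126-3p (0.78), miR-10b-3p (0.74), miR-20a-5p (0.70) and miR-15a-5p (0.69). The correlation of miR-26a-5p with miR-26b-5p was 0.61 (Spearman 0.72), or 0.92 in shares of all miRNA reads. In shares, miR-26a-5p was at 0.86 with miR-n6, 0.88 with miR-125a-5p, 0.67 with miR-145a-3p, 0.94 with miR-125b-5p and 0.69 with miR-221-5p. The order thus depended on the scaling. Shares of a library depend on each other through its abundant miRNAs, and the part of this in these values was not tested. These values are descriptions of the highest of many, and the libraries share the authors' scaling, the ranges of animal number and the near-identical pair. Without that pair the miR-26a-5p correlations with miR-125a-5p and miR-145a-3p were 0.82 and 0.76, and those of miR-26b-5p with miR-10a-3p and miR-126-3p were 0.81 and 0.78.

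Other miRNAs reported in the smooth muscle phenotype were listed for comparison, and 21 of 26 rows were tested. limma called 0 of them in the genotype comparison at short term and 0 at long term, against 0% of all miRNAs in both, and 13 and 10 of 21 lay above 0. Their median log2 change was 0.03 at short term and -0.01 at long term, beside -0.04 and -0.01 over all miRNAs tested. The smallest p-values belonged to miR-143-5p at short term (0.46 ± 0.21, log2, SE, limma adjusted p = 0.99) and miR-221-5p at long term (-1.17 ± 0.41, adjusted p = 0.688). Between the times 1 of 21 was called in ieCre mice, miR-143-3p (1.43 ± 0.38, limma adjusted p = 0.0167), and 0 in ieET-1 mice, where miR-21a-5p (0.66 ± 0.23) had an adjusted p of 0.0843, beside 7.91% and 5.93% of all miRNAs called in ieCre and ieET-1 mice. The 1 of 21 is no larger a share than that background. The list's median was 0.13 in ieCre mice and -0.04 in ieET-1 mice, beside -0.13 and -0.09 over all miRNAs tested.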

How the data were processed

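Per the labels' protocols, TruSeq small RNA libraries were built from 1 µg of RNA. Tools listed in the submitters' processing notes, with no roles, are STAR 2.3.1, edgeR 3.6.8, R 3.2.3, FastQC and bcl2fastq 1.8.4. The authors deposited a normalized signal for each miRNA in each library, by a scaling that no source used here states. Every value was a whole multiple of its library's smallest value above 0 (100% within 0.001), so read counts were recovered by division, and the count tests used these. Of 32 labelled samples 30 have a column, while 2 ieCre samples (1 per time) were not analysed here.

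The 354 of 870 miRNAs that reached a signal of 1 in 8 or more libraries entered limma-trend (limma 3.58.1 under R 4.3.3) on log2(value + 1). A single model held the means of all 4 groups, and tests were two-sided, Benjamini-Hochberg adjusted over all miRNAs, threshold 0.05. This scale understates changes of low miRNAs. edgeR 4.0.16 and DESeq2 1.42.0 on the recovered reads, other scalings, filters, pseudocounts, array weights, the range of animal number and leaving out libraries were alternatives. Ratios and shares were compared by exact permutation tests, adjusted over 20 comparisons. For the ratios, 1 was added to each signal before the log2. limma and edgeR were tested on simulated data. Libraries were taken as separate mice, so p-values reflect only the spread among them. Named were all miR-26 rows, their neighbours in level, the 5 highest correlations and up to 4 smooth muscle list members per comparison. The members and lists were chosen with earlier results of these data known. Sequences are RefSeq's (GRCm38.p6).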

Additional observations from a re-analysis of the deposited data

Results flagged for a closer look

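Within each group of 7 or 8 libraries, a library was singled out when its gap to the next library was more than Dixon's 95% critical value of the group's range. Chance flags about 1 in 20 groups, and 40 sets of values were examined. In ieCre short term, library 10 held miR-26a-2-3p at a normalized signal of 1.803, where the next library was at 0.511, and 0.0150% of its miR-26a reads were on the 3p arms (42 reads; 95% exact binomial interval 0.0108% to 0.0203%), where the next was at 0.00321%. In ieET-1 long term, library 8151 had 0.0123% of miR-26a reads on the 3p arms (13 reads; 0.00656% to 0.0211%), where the next was at 0.00422%. In ieET-1 long term, library 9490 had miR-26a-5p at 4.87% and miR-26b-5p at 0.258% of all miRNA reads, where the next libraries were at 2.58% and 0.152%. On the deposited scale the same library, at 27052 and 1435, was inside the range of its group.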

How the results depend on the processing

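No paired analysis was possible because the animal numbers do not repeat between groups. Of 319 results recomputed under alternatives other than leaving out 1 library, 295 kept direction and side of the threshold. The count of miR-26 rows called stayed at 0 except in ieCre long against short term, where it was 2 with scaling to all miRNA reads, and it was 0 without any single library in all 5 comparisons, as was the count of ratios and shares past the threshold. Scaling to all miRNA reads moved the median of all miRNAs to -0.20 and 0.31 for genotype at short and long term and 0.53 for their difference. With it, the log2 genotype changes of miR-26a-5p, miR-26b-5p and miR-26b-3p at short term were -0.12, -0.14 and -0.076, that of miR-26a-5p at long term 0.23, and the long minus short differences of miR-26a-5p and miR-26b-5p were 0.34 and 0.59. Under it the time changes of miR-26a-5p and miR-26b-5p were -0.78 and -1.05 in ieCre and -0.44 and -0.45 in ieET-1 mice. miR-26b-5p at long term was -0.042 with edgeR and -0.14 with array weights, and its long minus short difference was 0.14 with animal number range added to the fit. Among mice numbered 8000 or above the ieCre time changes of miR-26a-5p, miR-26b-5p and miR-26b-3p were -0.042, -0.14 and 0.054, and that of miR-26b-3p in ieET-1 mice 0.40. In ieET-1 mice, the time changes of miR-26a-5p and miR-26b-5p were -0.11 and -0.027 with array weights, and that of miR-26b-5p -0.013 with TMM. The log2 ratio of miR-26a-5p to its 3p rows differed by 0.034 at short term with a pseudocount of 5 and by -0.18 between the times in ieCre with reads + 0.5. The cause of these turns was not tested.

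Leaving out 1 library turned the sign of these values, given by their lowest and highest. For genotype at short term they were -0.018 to 0.20 (miR-26a-5p), -0.027 to 0.11 (miR-26b-5p) and -0.078 to 0.14 (miR-26b-3p), and at long term -0.061 to 0.13 (miR-26b-5p). The long minus short difference of miR-26b-5p was -0.11 to 0.084. Time changes were -0.067 to 0.13 (miR-26b-5p, ieCre), -0.057 to 0.12 (miR-26a-5p, ieET-1) and -0.048 to 0.083 (miR-26b-5p, ieET-1). The ratio of miR-26a-5p to its 3p rows ran from -0.055 to 0.30 between the times in ieCre and -0.12 to 0.24 in ieET-1 mice. That of miR-26b-5p to miR-26b-3p ran from -0.12 to 0.17 for genotype at short and -0.28 to 0.045 at long term. That of miR-26a-5p to miR-26b-5p ran from -0.031 to 0.085 for genotype at short term and -0.046 to 0.075 between the times in ieET-1 mice. The share of miR-26a-5p ran from -0.26 to 0.050 for genotype at short and -0.021 to 0.35 at long term. With 3 to 305 reads of miR-26b-3p per library, its changes are limited by depth, as are those of the miR-26a 3p rows, at 0 to 51 reads.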

Other observations

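The percent of miR-26b reads on the 3p arm also differed between ieET-1 long-term mice by animal number, a pattern chosen after the values were seen. How many other miRNAs differ in this way was not counted. Libraries 8150, 8151 and 8152 had 0.446%, 0.672% and 0.551%, and libraries 8134, 8135 and 8136 had 0.103%, 0.136% and 0.119%. The 2 ieET-1 libraries in the 9000s had 0.138% and 0.187%. The number of miR-26b-3p reads behind the first 3 was 39, 39 and 45, and behind the next 3 it was 3, 48 and 5.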
